A study of Capsicum annuum with 12 samples.

Results

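H3K4me3 regions in the middles of the pepper chromosomes were fewer and farther apart than those near the chromosome ends. By median they were more enriched on 11 of 12 chromosomes, but not clearly so among regions with another within 20 kb. Middle regions were taken as the intervals covered by H3K4me3 peaks in both replicate libraries, from 100 to below 2000 bp wide. Their midpoint lay between 30% and 70% of the length of a chromosome. There were 4804 such middle regions among the 30149 shared H3K4me3 regions of that width on the 12 chromosomes. They were set against the 18444 regions in the outer 15% at each end, called end regions here. A further 151 intervals of the middle and 893 of the ends were 2000 bp or wider and are not among them.

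The material was young leaf of the pepper Capsicum annuum, cultivar 59, and no treatment or genotype distinguished the samples. Chromatin immunoprecipitation sequencing was done for 3 histone marks, H3K4me3, H3K27me3 and H3K9me2, with 2 replicates of each, and each of the 6 libraries has its own peak list. The labels list 6 input samples as well, which enter here only through the authors' peak calling. Nothing in the labels ties the replicates to separate plants, so the spread between them may be technical.

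The mark H3K4me3, a trimethyl group on a lysine near the start of histone H3, is laid down around the start of transcribed genes, and a narrow H3K4me3 peak in a plant genome usually marks an active promoter. H3K27me3 is deposited by Polycomb proteins over silenced genes, and H3K9me2 marks silent transposons and other repeats. In large plant genomes such as that of pepper, genes are concentrated toward the chromosome ends, while the interior is gene-poor and rich in retrotransposons.

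Fold enrichment, used below as the strength of a region, is the authors' value for the strongest peak that overlaps it, the height at that peak's summit over the local background. A peak that is whole in 1 library and broken in the other gives its value to several regions. This holds for 204 middle regions (4.25%) and 1268 end regions (6.87%), all with a neighbour within 2 kb. Tests compared the middle with the ends on the same chromosome and flipped the sign of the 12 chromosome differences in all possible ways, which allows no p below 0.000488. Such a p speaks of this genome's chromosomes and not of plants. Benjamini-Hochberg adjustment covered the 10 planned comparisons, unless another family is named. Over only 2 libraries, an exact sign-flip test cannot go below p = 0.5, so none was run and values of each library are given.

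Middle regions were sparse on every chromosome. Over 1226 Mb of middle they came to 3.92 per Mb, against 20.1 per Mb over 920 Mb of ends. Chromosomes 2 and 1 had the densest middles, with 8.44 and 6.48 regions per Mb, against 33.0 and 16.9 per Mb at their ends. Chromosomes 11 and 5 had the sparsest middles, with 2.82 and 2.83 per Mb, against 14.5 and 15.3 per Mb at their ends. The ratio of end to middle density ran from 2.60 on chromosome 1 to 9.65 on chromosome 3. Chromosome 3 had 375 middle regions against 2713 end regions, and chromosome 1 had 864 against 1685.

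With all chromosomes pooled, the fall in density from both ends to the centre was gradual. The outermost 5% of the chromosomes held 31.8 regions per Mb at the start and 29.0 at the other end, and the lowest value, 3.11 per Mb, was in the step from 45% to 50% of the length. Single chromosomes could depart from this pooled slope. In the first 5% every chromosome had at least 10.6 per Mb. In the step from 5% to 10%, the sparsest chromosome had 2.30 per Mb and the densest 38.4, against 16.9 pooled. The limits at 30% and 70% cut through the pooled slope. In the 5 points of length just inside them lay 1383 regions with a median fold of 32.1 and a median distance of 29.1 kb to the nearest other region. In the 5 points just outside lay 1572 regions with a median fold of 33.0 and a distance of 25.7 kb. At the limit of width, 58 middle regions from 1800 to below 2000 bp had a median fold of 77.6, and 42 intervals from 2000 to below 2200 bp had one of 77.0.

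**Figure D1:**
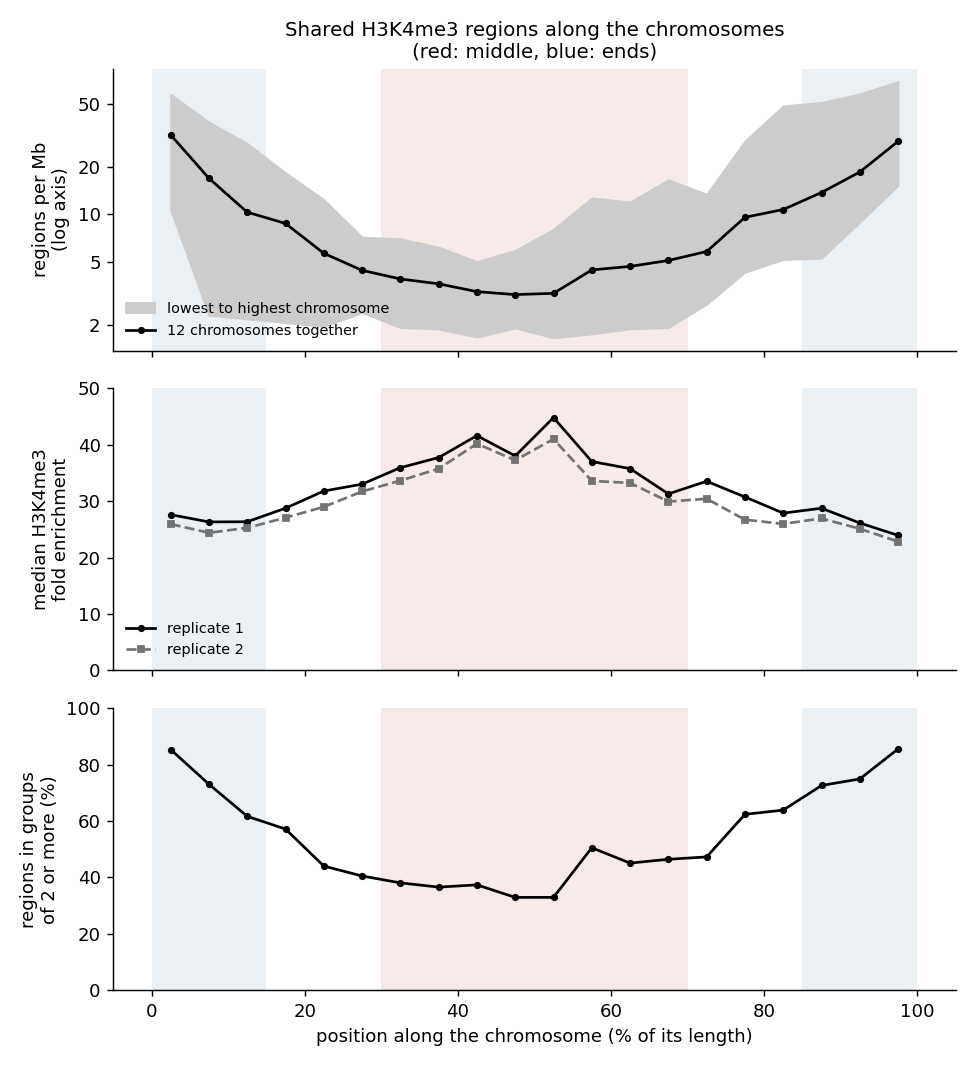
Density (regions per Mb, log axis), median H3K4me3 fold enrichment in each replicate and share of regions in groups of at least 2 (%), in steps of 5% of chromosome length, for shared H3K4me3 regions from 100 to below 2000 bp on 12 chromosomes; red shading marks the middle, blue the ends, and the grey band spans the chromosomes. Density is lowest between 45% and 50%, at 3.11 per Mb, while the median fold in both replicates is highest between 50% and 55%, at 44.8 and 41.0.

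Middle regions were more enriched than end regions in both libraries. In replicate 1 the median fold was 36.9 in the middle and 26.2 at the ends, and in replicate 2 it was 35.2 and 24.9. The single regions overlapped widely: between the 10th and the 90th percentile, fold ran from 7.1 to 122 in the middle and from 6.18 to 112 at the ends (mean of the replicates). Averaged over chromosomes, the median fold was 37.8 in the middle and 26.2 at the ends, a difference of 11.6 ± 6.77 (SD, 12 chromosomes). It was higher on 11 of 12 chromosomes, with an adjusted exact p of 0.00209. In bulk leaf chromatin, more cells that carry the mark and more of it per cell cannot be told apart. The median region rested on 109 and 117 fragments over the summit in replicates 1 and 2 in the middle, against 78 and 82 at the ends. The background that the peak caller set for each site had a median of 1.73 and 2.28 fragments in replicates 1 and 2 in the middle, against 1.74 and 2.51 at the ends.

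Chromosomes 2 and 8, the shortest of the set at 179 and 174 Mb, had middles and ends of nearly the same strength. On chromosome 2 the median fold was 32.1 in the middle and 32.0 at the ends, and on chromosome 8 it was 32.0 and 33.8 (mean of the replicates). By library, chromosome 2 was lower in the middle in both, with 31.8 against 32.2 in replicate 1 and 28.3 against 30.4 in replicate 2. Chromosome 8 was lower in replicate 1, with 33.2 against 33.6, and not in replicate 2, with 31.6 against 31.4. Their ends had the highest medians of all chromosome ends, and their middles the lowest of all middles. End values pool both ends of a chromosome, and neither density nor strength was compared between the 2 ends of these chromosomes. The widest gap was on chromosome 9, with 41.5 in the middle against 21.9 at the ends, followed by chromosomes 11 (41.1 against 23.9) and 5 (40.3 against 23.1). On chromosome 9 replicate 1 had 43.4 against 22.7 and replicate 2 had 36.8 against 20.3.

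**Figure D2:**
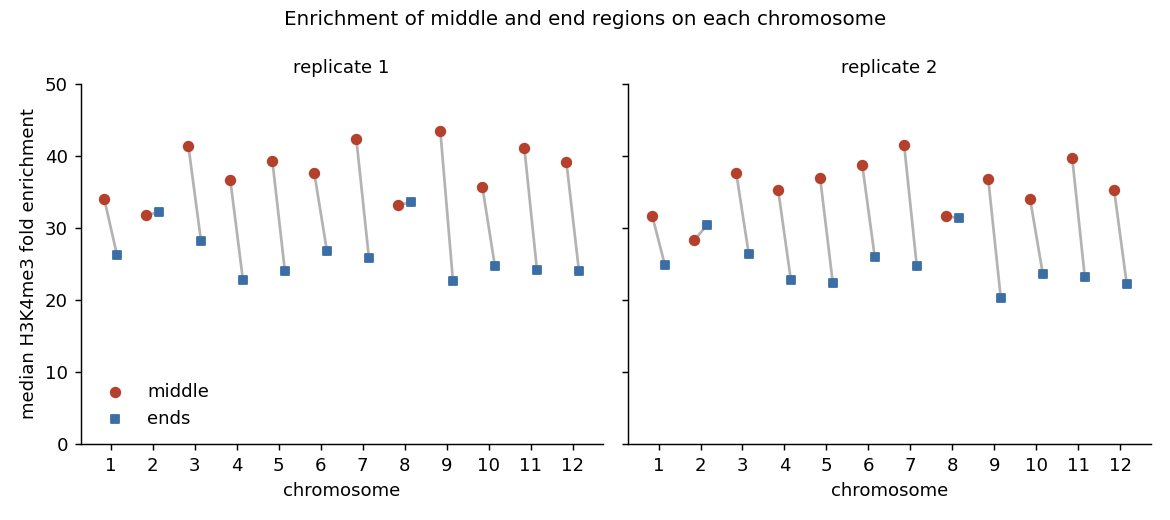
Median H3K4me3 fold enrichment of middle regions (red circles) and end regions (blue squares) on each of the 12 chromosomes, in replicate 1 and in replicate 2; lines join the values of a chromosome. The middle is higher in both replicates on the 10 chromosomes other than 2 and 8, for example on chromosome 9 with 43.4 against 22.7 in replicate 1.

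Weak regions were a smaller share of the middle. Fold was under 10 in 17.4% of middle regions (837) and in 23.9% of end regions (4406), while it was at least 100 in 15.4% (738) and 12.6% (2316). The 25th percentile of fold averaged 15.7 in the middle and 10.4 at the ends, higher on 12 of 12 chromosomes. The 90th percentile averaged 121 and 110, higher on 10 of 12. Adjusted over the 7 tests added after seeing the data, the exact p was 0.00342 for the 25th and 0.0314 for the 90th percentile.

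Middle regions were also slightly wider. Their width had a median of 831 bp, against 769 bp at the ends, within the limits that hold for both. The mean chromosome difference was 66.1 ± 51.8 bp (SD, 12 chromosomes), with the middle wider on 10 chromosomes and narrower on chromosomes 2 and 8 (adjusted exact p = 0.00488). When H3K4me3 peaks had to reach 10 on the −log10 q scale, the difference was 31.8 bp and missed the threshold (adjusted exact p = 0.0570). It was 34.7 bp with peaks joined within 1 kb (0.0483) and 41.7 bp with peaks of a fold of at least 5 (0.0266). Compared within width classes of 200 bp, regions differed in fold by 7.01 ± 4.35 (SD, 12 chromosomes; higher in the middle on 11, adjusted exact p = 0.00163).

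Peaks of the middle were found again in the other replicate more often. Of the peaks from 100 to below 2000 bp, 92.0% of 5124 in the middle of replicate 1 had a partner in replicate 2, against 88.1% of 20252 at the ends. For replicate 2 the shares were 93.5% of 5013 in the middle and 89.5% of 19844 at the ends. The mean difference was 4.28 ± 1.33 percentage points (SD, 12 chromosomes), higher in the middle on 12 of 12 (adjusted exact p = 0.000977). With H3K4me3 peaks of at least 10 on the −log10 q scale it was 2.07 points, with the same p. The 95% Wilson intervals were 91.2 to 92.7% for the middle and 87.6 to 88.5% for the ends in replicate 1, and they cover counting error only. For shared regions, the fold of the 2 replicates differed by a median factor of 1.30 in the middle and 1.31 at the ends.

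The 5 middle regions of highest mean fold were all lone regions, with no other H3K4me3 region within 20 kb and no H3K27me3 bases. Positions are those of the peak lists, and no source used here names their genome build. That on chromosome 5 from 129964773 to 129965942, 1170 bp wide, had a fold of 493 in replicate 1 and 330 in replicate 2, on 1130 and 1322 fragments. Its nearest neighbour lay 383 kb away. That on chromosome 4 from 113364377 to 113365510 had 442 and 324, on 1363 and 1296 fragments, and stood 1196 kb from the next region.

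The other 3 differed more between the replicates. On chromosome 7 from 108378285 to 108379239 the fold was 251 in replicate 1 and 514 in replicate 2. The region on chromosome 11 from 124648366 to 124649323 had 143 and 713, and that on chromosome 3 from 179936423 to 179937472 had 115 and 616. On chromosomes 11 and 3 the local background was 3.45 and 4.60 fragments in replicate 1 but 1.58 in replicate 2, the lowest level of that library, so the fragment counts (634 and 1840, and 644 and 1589) differed less than the fold. The region on chromosome 3 also bounds the longest stretch of that middle with no shared region, 2075 kb.

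Middle regions stood far apart. The median distance to the nearest other shared H3K4me3 region of any width from 100 bp was 31.5 kb in the middle and 7.00 kb at the ends. Averaged over chromosomes, the medians were 41.0 kb and 7.47 kb, a difference of 33.6 ± 16.0 kb (SD), with longer distances in the middle on 12 of 12 chromosomes (adjusted exact p = 0.000977). The middle median ran from 17.8 kb on chromosome 1 to 77.5 kb on chromosome 5, and that of the ends from 4.23 kb on chromosome 2 to 9.45 kb on chromosome 11, so the chromosomes did not overlap between the zones. A neighbour at 100 kb or more was found for 29.0% of middle regions (1392) and 3.33% of end regions (614). A neighbour closer than 2 kb was found for 14.6% (703) and 25.3% (4668). Fewer regions per Mb give longer distances by themselves, so this comparison is not separate from that of density. Spacing at equal density was not tested.

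The 3 most isolated middle regions were among the moderate ones. On chromosome 4 from 148244624 to 148245938, 1780 kb from any other region, the fold was 49.9 and 40.03 in replicates 1 and 2. On chromosome 5 from 155677395 to 155678209, at 1560 kb, it was 32.2 and 30.6. On chromosome 10 from 84167393 to 84168038, at 1538 kb, it was 20.1 and 31.1. The values on chromosome 4 lie above the median of each library over the middle, and those on chromosomes 5 and 10 below it. The longest stretch of a middle with no shared region was 3557 kb, on chromosome 7 from 153990892 to 157548325, and that of each chromosome was at least 1501 kb.

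Most middle regions were islands of a single region. Regions with gaps of at most 20 kb between them were taken as a group, counting H3K4me3 regions of any width from 100 bp. Of the middle regions, 2836 (59.0%) were lone and 1968 (41.0%) were in groups of at least 2. Of the end regions, 3955 (21.4%) were lone and 14489 (78.6%) were grouped. Among all 30149 shared regions of this width class, 67.2% were grouped. The grouped share averaged 38.6% in the middle and 77.5% at the ends, a difference of −38.9 ± 7.76 percentage points (SD, 12 chromosomes), lower in the middle on 12 of 12 (adjusted exact p = 0.000977). It was above 50% only in the middles of chromosomes 1 (53.0%) and 2 (51.4%), and lowest in the middle of chromosome 5 (30.9%). At the ends it ran from 69.0% on chromosome 11 to 87.9% on chromosome 2. A lower density by itself leaves fewer regions within 20 kb of another. Whether the middle is more or less grouped than its density alone would give was not tested.

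Groups in the middle were small. Of the 832 groups with at least 2 regions, 583 had 2, 171 had 3, 46 had 4 and 32 had 5 or more, and the largest had 9. At the ends, 1600 of 3810 groups had 2 regions, 1002 had 5 or more, and the largest had 39. Groups of 5 or more held 172 middle regions (3.58%) and 7517 end regions (40.8%).

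The groups with the most middle regions lay on chromosomes 2 and 1. On chromosome 2 from 120449763 to 120496104, 8 regions in 46.3 kb had mean folds from 3.14 to 148. On chromosome 2 from 119361381 to 119417996, 7 middle regions of the set, with 2 wider H3K4me3 regions between or beside them, spanned 56.6 kb, with folds from 4.46 to 181. On chromosome 1 from 190858539 to 190914975, 7 regions in 56.4 kb had folds from 4.58 to 53.8. Each group thus mixed strong and weak regions, with a median fold of 15.9, 21.5 and 30.3 in this order.

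**Figure D3:**
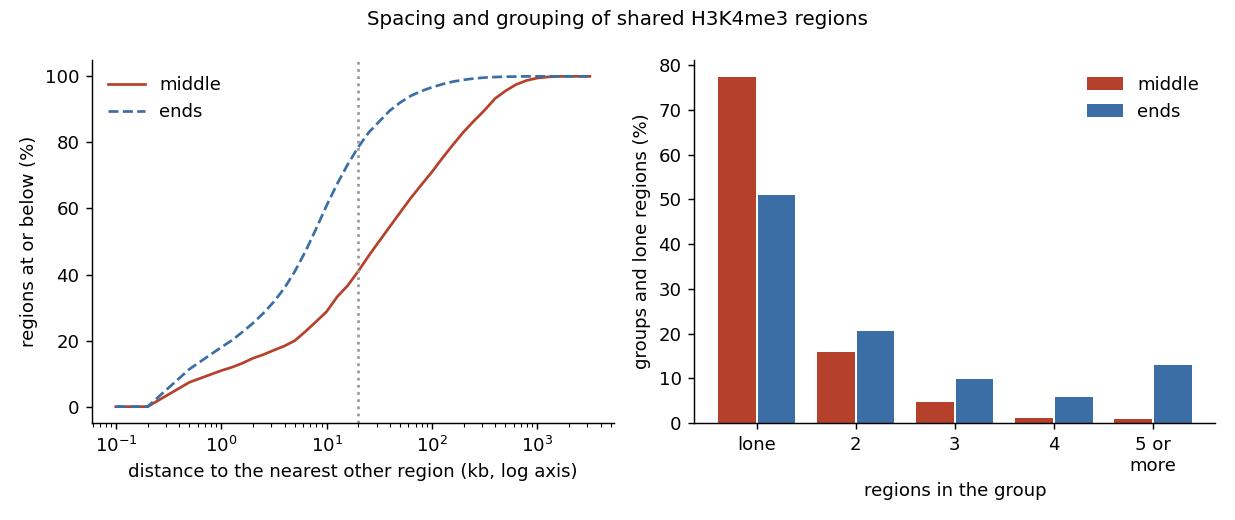
Left, cumulative share (%) of middle (red) and end (dashed blue) regions by distance to the nearest other shared H3K4me3 region (kb, log axis), with a dotted line at the 20 kb that joins a group; right, the size of groups as a share (%) of all groups and lone regions. Lone regions make up 77.3% of these units in the middle and 50.9% at the ends.

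Lone middle regions had a higher median fold than grouped ones. Their median fold was 44.9 in replicate 1 and 41.9 in replicate 2, against 26.5 and 24.4 for grouped middle regions. The mean difference over chromosomes was 18.9 ± 6.24 (SD), with lone regions higher on 12 of 12 (adjusted exact p = 0.000977). The strongest region of each middle group of at least 2 had a median fold of 59.2, above the 43.9 of lone middle regions, and at the ends these values were 69.6 and 30.6. The strongest of several regions is higher by selection alone, and more so in larger groups. Lone middle regions were 869 bp wide by median, and grouped ones 745 bp. The median fold was higher in each class of longer distance, at 17.8 with a neighbour under 2 kb, 21.6 at 2 to 5 kb, 37.3 at 5 to 20 kb, 42.2 at 20 to 100 kb and 46.4 at 100 kb or more. The close neighbours were narrow, with a median width of 562 bp under 2 kb against 877 bp at 100 kb or more, and 29.0% of them were cut from a peak that spans several regions.

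The ends did not follow the same order. There the medians were 15.7 under 2 kb, 27.5 at 2 to 5 kb, 32.5 at 5 to 20 kb, 31.7 at 20 to 100 kb and 24.7 at 100 kb or more. Lone regions exceeded grouped ones by 18.9 in the middle and by 6.84 at the ends, on average over chromosomes. The difference between these was 12.04 ± 8.57 (SD), positive on 11 of 12 chromosomes (exact p = 0.00244, adjusted over the 7 added tests 0.00427). On chromosome 2 it went the other way, with 7.70 in the middle and 18.3 at the ends.

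**Figure D4:**
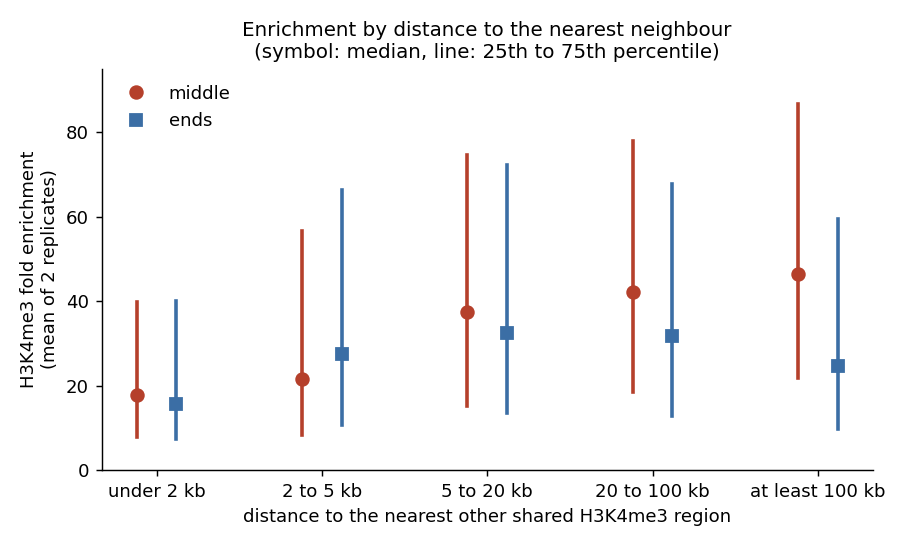
H3K4me3 fold enrichment (mean of 2 replicates) of middle (red circles) and end (blue squares) regions by distance to the nearest other shared H3K4me3 region; symbols are medians and lines run from the 25th to the 75th percentile over regions. With no neighbour within 100 kb the median is 46.4 in the middle and 24.7 at the ends, while with one under 2 kb it is 17.8 and 15.7.

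The difference in strength between middle and ends was larger among lone regions than among grouped ones. Lone regions had a median fold of 45.2 in the middle and 31.6 at the ends (mean of 12 chromosomes), a difference of 13.6 ± 9.87 (SD, exact p adjusted over the 7 added tests 0.00427). It was higher in the middle on 11 of 12 and lower on chromosome 2, with 35.2 against 47.8. Grouped regions had 26.3 and 24.7, a difference of 1.58 ± 4.84 that missed the threshold (higher on 8 of 12, adjusted exact p = 0.325). The single strongest region of each group, lone regions included, had a median fold of 46.7 in the middle and 46.4 at the ends over all 3668 and 7765 groups and lone regions. The mean chromosome difference of this value was −1.0 ± 15.7 (SD), higher in the middle on 9 of 12 but lower on chromosomes 2 (41.4 against 74.5), 8 (43.5 against 74.0) and 3 (47.1 against 56.7), with an adjusted exact p of 0.828. A group or lone unit held 1.31 middle regions on average and 2.38 end regions, and the part of this number in the comparison was not tested.

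H3K27me3 overlapped middle regions less often than end regions. Of the middle regions, 375 (7.81%) shared at least 1 base with H3K27me3 found in both replicates, against 1843 (9.99%) of the end regions and 9.64% of all shared regions of this width. The mean difference was −2.29 ± 2.59 percentage points (SD, 12 chromosomes), lower in the middle on 10 and higher on chromosomes 10 and 12 (adjusted exact p = 0.00760). It was lower in the middle with H3K27me3 of single libraries too, at 9.14% against 12.2% with replicate 1 and 8.26% against 11.3% with replicate 2. The marks were profiled in separate libraries of bulk leaf, so overlapping peaks may come from different cells. Here and below, overlap does not show both marks on the same chromatin.

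H3K27me3 itself was much rarer in the middle. It covered 0.161% of the bases of the middle and 1.34% of those of the ends. It covered 4.30% of the bases of middle H3K4me3 regions and 6.0% of those of end regions. Relative to all bases of their zone, middle regions were thus covered 26.8 times as often, and end regions 4.49 times. The ratio was higher in the middle on each of the 12 chromosomes, from 12.9 to 53.9 in the middle against 2.94 to 6.56 at the ends, and is given as a description with no test. Of the 3103 shared H3K27me3 regions of the middle, 12.3% overlapped H3K4me3, against 9.94% of 19426 at the ends.

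Around the regions, too, H3K27me3 was less frequent in the middle. It lay within 10 kb of 641 middle regions (13.3%) and of 5073 end regions (27.5%), against 23.7% of all shared regions of this width. The mean difference was −14.5 ± 4.23 percentage points (SD), lower in the middle on 12 of 12 chromosomes (adjusted exact p = 0.000977). Of all bases, 2.70% of the middle and 17.2% of the ends lay within 10 kb of H3K27me3. Relative to these bases, the share of regions was 4.94 times as high in the middle and 1.60 times at the ends, with no test. The median distance to H3K27me3 was 199 kb in the middle and 29.0 kb at the ends. Of the regions with H3K27me3 within 10 kb, 58.5% overlapped it in the middle and 36.3% at the ends.

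Middle regions that overlapped H3K27me3 were narrow and weak in H3K4me3. Their median width was 487 bp, against 847 bp for the other middle regions. Overlapping end regions were narrower too, at 553 bp against 790 bp. The median H3K4me3 fold of overlapping middle regions was 10.9 in replicate 1 and 10.7 in replicate 2, against 40.5 and 38.1 for the others. At the ends, overlapping regions had 11.6 and 10.5, close to those of the middle, and the others had 28.8 and 27.3. H3K27me3 fold at overlapping regions was 14.1 and 13.2 in the middle and 13.1 and 12.03 at the ends. In the middle, 50.4% of overlapping regions lay wholly inside H3K27me3, against 43.5% at the ends. Lone middle regions overlapped H3K27me3 in 8.15% and grouped ones in 7.32%, while at the ends the shares were 13.9% and 8.94%.

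The 3 longest overlaps in the middle lay on chromosomes 2 and 12. On chromosome 2 from 116884184 to 116885901, 1688 of 1718 bp were also H3K27me3, with an H3K4me3 fold of 14.6 and 24.8 and an H3K27me3 fold of 29.98 and 22.1 in replicates 1 and 2. On chromosome 12 from 174769809 to 174771295 all 1487 bp were shared, and the fold was 21.2 and 15.6 for H3K4me3, beside 27.8 and 22.0 for H3K27me3. Both are lone regions with an H3K4me3 fold below the middle's median in both replicates. On chromosome 2 from 109717704 to 109719324, 1455 of 1621 bp were shared, at a fold of 91.6 and 30.7 for H3K4me3, beside 46.1 and 37.3 for H3K27me3. It belongs to a group of 3 regions, and its nearest neighbour is 0.226 kb away.

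No overlap with H3K9me2 peaks found in both replicates was seen among the middle regions. None of the 4804 overlapped H3K9me2 bases found in both replicates, which allows a share of up to 0.0624%, and 1 of 18444 end regions did. That single end region was 0.00332% of all shared regions of this width. H3K9me2 found in both replicates covered 0.0331% of the bases of the middle and 0.0610% of those of the ends. A share of bases is not a share of regions with any overlap, and the number of overlaps to be met by position alone was not computed. The middle region nearest to H3K9me2, on chromosome 11 from 165126802 to 165127556, was 1.33 kb from it and had a fold of 16.9 and 11.8. H3K9me2 peaks on the chromosomes were weak, with a median fold of 4.31 in replicate 1 and 4.38 in replicate 2. Bases outside these peaks may still carry the mark, so the values speak of called peaks only.

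Within 10 kb, H3K9me2 was found for 28 middle regions (0.583%) and 83 end regions (0.45%), against 0.458% of all shared regions of this width. The difference of 0.109 ± 0.584 percentage points (SD, higher in the middle on 7 of 12 chromosomes) missed the threshold (adjusted exact p = 0.520). Both shares were below that of bases: 1.69% of the middle and 2.26% of the ends lay within 10 kb of H3K9me2. Few H3K9me2 peaks were found in both replicates, and sets with more H3K9me2 gave another call. With the H3K9me2 peaks of replicate 1, 5.10% of middle regions and 2.35% of end regions had one within 10 kb, and with those of replicate 2, 4.04% and 2.02%. With H3K9me2 of either replicate the mean difference was 5.25 percentage points (higher in the middle on 11 of 12, adjusted exact p = 0.00122). In that set 8.18% of middle regions were within 10 kb of H3K9me2, against 14.4% of the bases of the middle, and 3.67% of end regions, against 12.1% of the bases of the ends. Of the middle regions 1 overlapped H3K9me2 of either replicate, and of the end regions 4 did.

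**Figure D5:**
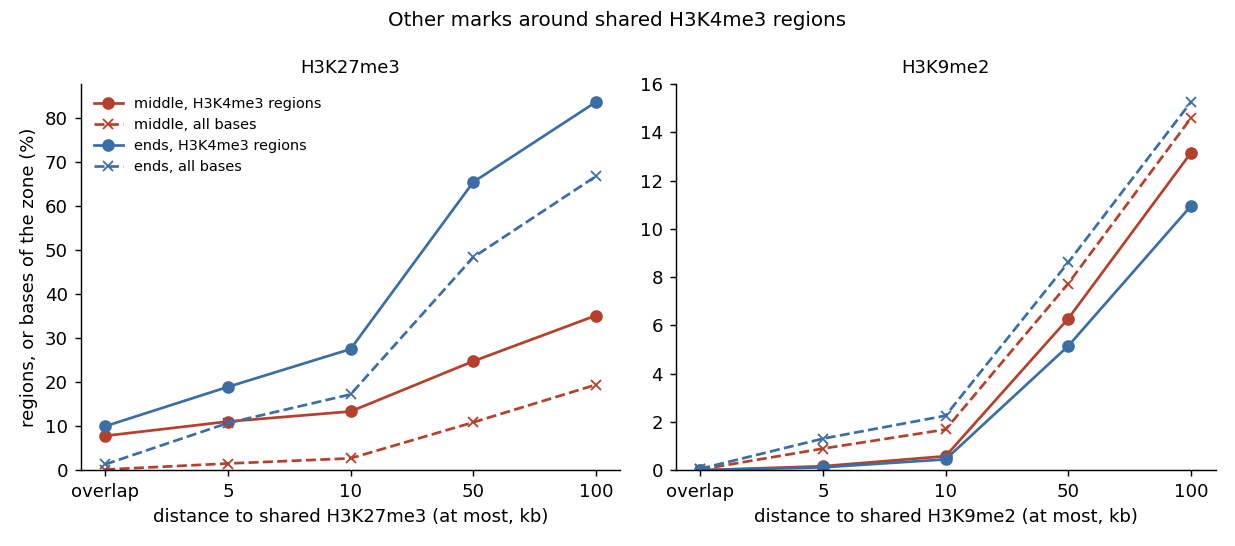
Share (%) of middle (red) and end (blue) H3K4me3 regions that overlap, or lie within 5, 10, 50 or 100 kb of, H3K27me3 (left) or H3K9me2 (right) found in both replicates (solid lines), beside the share (%) of all bases of the zone at the same distance (dashed lines); distances are steps, not to scale. At 10 kb, H3K27me3 is near 13.3% of middle regions against 2.70% of the bases of the middle, and H3K9me2 near 0.583% against 1.69%.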

How the data were processed

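ChIP-seq peak lists of 6 libraries (2 each of H3K4me3, H3K27me3 and H3K9me2) from young pepper leaf were used. Per the labels' protocols, cross-linking used 1% formaldehyde (10 min), and reads were 150 bp pairs. MACS2 2.2.7.1, deepTools 3.3.0, BWA 0.7.17 and Trimmomatic 0.38 are listed in the submitters' processing notes. Settings and genome build were not given in the sources used here. Each list's name says that an input was the control. For every peak, the deposited lists give the authors' fold enrichment (a linear ratio over local background) and its p-value and q-value as −log10. Fold was used as the authors' value within a list.

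Peaks on the 12 sequences with the prefix Ca_59Chr were merged and intersected between replicates, keeping intervals of at least 100 bp. Chromosome length was taken as the highest peak end in any of the 6 lists. Positions count from 1. No gene was assigned, since the gene table at hand is of another assembly, and no sequence is shown. Read totals were not given either. Fragments over a summit (n) and local background were solved from fold, read as (n + 1) over (background + 1), and p, read as a Poisson tail above n. For 100% of peaks, n was whole to within 0.01. The H3K4me3 libraries held 34467 and 33855 peaks on the chromosomes, with a median of 73 and 80 fragments; those of H3K9me2 had 15 and 15.

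A peak counted as found again where the overlap with a peak of the other replicate was at least 50% of the shorter of them. Chromosomes with at least 5 regions in each class entered an exact two-sided sign-flip permutation test, with a threshold of 0.05 after adjustment. Bases of another mark are those found in both replicates unless stated. Alternatives were a −log10 q of at least 10 or a fold of at least 5 for H3K4me3 peaks, joining within 1 kb, no upper width limit, other zones, groups and distances, bases of either replicate, leaving out chromosomes 1 and 2 or a replicate, mean log2 fold and an overlap of 1 bp. Comparisons of lone, grouped and strongest regions, of percentiles, of local background and of regions cut from 1 peak counted as 1 were chosen after seeing the data. Named are the 5 middle regions of highest fold, the 3 largest groups, the 3 most isolated regions, the 3 longest overlaps with H3K27me3, any overlap with H3K9me2, and the 2 densest and 2 sparsest chromosomes; the region nearest to H3K9me2, and the chromosomes named for single values, were chosen after their values were seen. The region set and the comparisons were chosen with earlier results of these data known. Python 3.11.15, numpy 2.4.6, scipy 1.17.1 and matplotlib 3.10.9 were used. On simulated data, only the recovery of fragments, the interval arithmetic and the sign-flip test of fold were checked. For that test, folds were drawn independently for each region.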

Additional observations from a re-analysis of the deposited data

Results flagged for a closer look

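The excess in fold of lone over grouped H3K4me3 regions differed between the chromosome zones, by 12.04 on average over 12 chromosomes (18.9 in the middle, 6.84 at the ends). A test of the difference itself, an exact two-sided sign flip over chromosomes, gave p = 0.00244 (0.00427 adjusted over the 7 added tests), with 11 of 12 chromosomes in this direction. The median local background in replicate 1 was 1.73 fragments for both lone and grouped regions in the middle, against 1.73 and 1.74 at the ends, and in replicate 2 it was 2.17 and 2.51 in the middle, against 2.48 and 2.51 at the ends. Its part in the result was not tested.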

How the results depend on the processing

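Of 113 planned recalculations of the 10 results, 109 kept direction and side of the threshold and none turned the sign. The count includes lone minus grouped middle regions with other limits of the ends, which could not change because no end region enters. The difference in width was 31.8 bp with a −log10 q of at least 10 for H3K4me3 peaks (adjusted exact p = 0.0570), where fewer weak peaks enter, against 66.1 bp as reported. The difference in H3K9me2 within 10 kb was 0.109 percentage points and not called. It became 2.26 and 2.98 when replicate 1 or 2 was left out and 5.25 with H3K9me2 of either replicate, all past the threshold. These sets hold more H3K9me2 peaks. Leaving out a replicate also replaced the shared H3K4me3 regions by those of 1 library. Of 15 recalculations added after seeing the data, 13 kept direction and call. These include 9 with regions cut from 1 peak counted as 1, where the fold differed by 11.5 and lone exceeded grouped middle regions by 17.5. Of the difference in fold of 11.6, grouped regions alone gave 1.58 (adjusted exact p = 0.325) and the strongest region of each group gave −1.0 (0.828). With local background of at most 5 times the lowest, which kept 99.5% of middle and 99.1% of end regions, the difference was 11.4. Calls held but sizes moved for fold matched in width (10.9 for a middle of 40% to 60%), overlap with H3K27me3 (−3.96 points with bases of either replicate) and H3K27me3 nearby (−8.03 points within 5 kb, −41.5 within 50 kb). Without either replicate the fold differed by 12.4 to 13.1, and the distance to the nearest region by 27.5 to 30.5 kb. By replicate number, no paired analysis was possible because an exact sign-flip test over 2 libraries cannot go below p = 0.5, above the threshold of 0.05. Both zones lie in every library, so their median fold is given for each library. The tests pair the zones by chromosome. The weakest regions rest on few fragments (8 and 9 in replicates 1 and 2 at the lowest), and H3K9me2 peaks on a median of 15 in both replicates.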
